A study of Mus musculus with 10 samples.

Results

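The genes described are the metallothioneins Mt1 and Mt2, the zinc-sensing transcription factor Mtf1, the zinc exporter Slc30a1 and the zinc importers Slc39a10 and Slc39a14. They were taken by symbol from a deposited expression table, in which they are 6 of 26335 rows, and all 6 were among the 12306 genes tested. The table holds RNA sequencing of mSCLC-2405 cells after 48 h with the antiseizure medication stiripentol at 250 μM (5 libraries) or without it (control, 5 libraries). The sample records name DMSO as the other treatment. The line was grown from a primary lung tumor of a mouse model of small cell lung cancer. In this model conditional deletions, that of Rb1 included, are made by an Adeno-Cre virus given into the trachea, and both groups carry them. Because all libraries come from 1 line, they describe that line and not a range of tumors.

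Metallothioneins are small cysteine-rich proteins that bind zinc and copper and buffer the free zinc of the cell. When free zinc rises, Mtf1 binds short DNA motifs called metal response elements and switches on Mt1, Mt2 and Slc30a1, whose product moves zinc out across the plasma membrane. Slc39a10 imports zinc at the plasma membrane and is known to be held down by Mtf1 when zinc is plentiful. Slc39a14 carries zinc, manganese and iron into the cell. Metallothionein genes are also known to respond to cadmium, oxidative stress and glucocorticoids.

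The promoters of the genes that Mtf1 is known to switch on are shown because the metal response element is the feature that links them. The core was searched as TGCACNC or TGCGCNC on both strands, in RefSeq windows on GRCm38.p6 that run from 250 bases before to 50 bases after each annotated start. The 150 bases before the start are printed 5′ to 3′ on the gene's strand, with matches in capitals. They lie at chr8:94178939-94179088 for Mt1, at chr8:94172468-94172617 for Mt2 and at chr1:191906631-191906780 for Slc30a1, all on the plus strand.
Mt1: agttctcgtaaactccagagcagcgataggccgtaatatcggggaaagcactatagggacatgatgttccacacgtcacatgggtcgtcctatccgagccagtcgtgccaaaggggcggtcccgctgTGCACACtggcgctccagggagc
Mt2: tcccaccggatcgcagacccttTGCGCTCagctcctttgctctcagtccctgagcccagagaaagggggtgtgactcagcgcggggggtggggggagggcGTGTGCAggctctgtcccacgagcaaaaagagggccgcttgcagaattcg
Slc30a1: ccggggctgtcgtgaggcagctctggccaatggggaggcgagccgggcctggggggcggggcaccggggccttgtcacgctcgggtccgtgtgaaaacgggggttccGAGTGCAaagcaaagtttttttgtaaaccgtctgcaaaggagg

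The whole window of 300 bases held 3 matches in Mt1, 4 in Mt2 and 2 in Slc30a1. Among 32851 promoter windows of the same length, 25.7% held at least 1 match, 7.11% at least 2, 1.97% at least 3 and 0.517% at least 4. The Mtf1 window (chr4:124802299-124802598) had no match. Neither did the windows at the 2 RefSeq starts of Slc39a10 (chr1:46925727-46926026 and chr1:46853569-46853868). These windows do not cover the GENCODE starts of Mtf1 and Slc39a10, which were not searched. A match describes these letters only, and binding of Mtf1 was not measured.

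**Figure D1:**
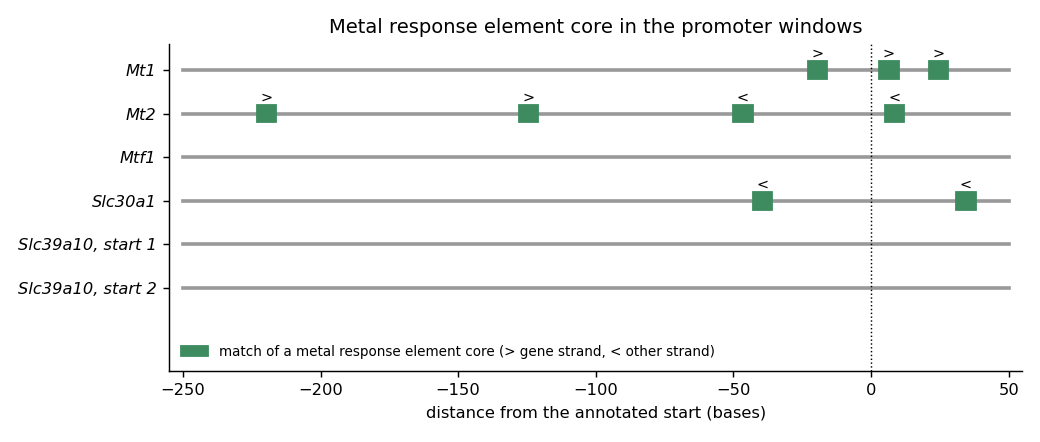
Matches of the metal response element core (green boxes) in the promoter windows of 5 of the genes, plotted by distance in bases from the annotated start, with arrowheads for the strand relative to the gene. Mt1 has 3, Mt2 has 4 and Slc30a1 has 2 matches, whereas the grey lines of Mtf1 and of both starts of Slc39a10 are empty.

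In GRCm38 with GENCODE M21, Mt2 (chr8:94172664-94173568) and Mt1 (chr8:94179082-94180327) lie side by side on the plus strand with 5513 bases between them. Mtf1 lies at chr4:124802104-124849800 and Slc30a1 at chr1:191906767-191913247, both on the plus strand. Slc39a10 (chr1:46807544-46892852) and Slc39a14 (chr14:70303469-70351425) lie on the minus strand. Exons of the antisense RNA Gm45774 overlap 432 bases of Mt2, those of 1110065P20Rik overlap 721 bases of Mtf1 and those of 1700034H15Rik overlap 468 bases of Slc30a1, each on the opposite strand. Whether the counting used strand is not given in the sources used here, so reads of these partners cannot be told apart from those of the genes. In the table, Gm45774 had 5 to 26 reads per library and 1700034H15Rik had 0 to 5, whereas 1110065P20Rik had 272 to 1192. No transcript of another gene matched one of these 6 genes at 95% identity over 100 bases other than these partners, and Mt1 and Mt2 did not match each other at that level.

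Whole reads recovered from the values gave 22375625 to 65299372 reads per control library and 55015760 to 60670901 per stiripentol library, with control 5 the shallowest. The libraries of each group formed 2 clusters, which are controls 1 to 3, controls 4 and 5, stiripentol 1 and 2, and stiripentol 3 to 5. Across genes, libraries correlated at 0.983 to 0.997 within a cluster and at 0.920 to 0.939 between the clusters of a group. The records do not name what sets the clusters apart or which control cluster belongs with which stiripentol cluster. The stiripentol cluster of 3 correlated with the control cluster of 2 (0.932 to 0.938) at least as well as with the control cluster of 3 (0.920 to 0.936). The stiripentol cluster of 2 also correlated better with the control cluster of 2 (0.881 to 0.904) than with that of 3 (0.840 to 0.875), so both stiripentol clusters were nearer to the same control cluster. Genes without a read were entered as -4.82 in controls 1 to 3 and as -4.74 in the other 7 libraries. In the values printed in the published paper, controls 1 and 2 hold the -4.74 entry, so the paper numbers the controls differently. Under its numbering, the control and stiripentol clusters of 2 are both libraries 1 and 2. Whether equal numbers mean paired libraries is not stated there. Every p-value over the 10 libraries treats each of them as a replicate, although the records do not say whether they came from separate cultures.

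Of the neuroendocrine markers of small cell lung cancer, Insm1 had at most 10 reads in any library and Syp at most 20. Ncam1 was at 92.8 to 117 CPM (reads scaled to the library total) in control and 126 to 154 CPM in stiripentol libraries. In the same order, the epithelial keratin Krt8 was at 1049 to 1274 and 793 to 974 CPM, and Krt18 at 1163 to 1489 and 689 to 1312 CPM. Yap1 was at 144 to 175 and 49.1 to 120 CPM, and Rest at 76.2 to 99.1 and 40.8 to 71.4 CPM. Pou2f3 was at 0.845 to 4.51 and 0.0517 to 0.267 CPM, while the ranges of Uchl1 overlapped (0.518 to 2.75 and 0.742 to 2.85 CPM). Epcam had at most 1 read. The summed level of 5 fibroblast markers was 317 to 511 CPM in control and 106 to 129 CPM in stiripentol libraries. Of these, Col3a1 was at 26.5 to 328 CPM in control and 1.37 to 3.95 CPM in stiripentol libraries, while the ranges of Col1a1 overlapped (25.4 to 322 and 39.4 to 100.1 CPM). The phagocyte gene Cd68 was at 4.12 to 17.9 CPM in control and 55.1 to 103 CPM in stiripentol libraries, but the leukocyte marker Ptprc had at most 3 reads and Csf1r at most 26. The deleted tumor suppressor Rb1 had 252 to 1443 reads per library, and the table does not show from which exons. Endothelial and alveolar markers summed to at most 1.12 CPM. The part of these markers in the results was not tested.

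Of the 6 genes, Slc39a10 fell with stiripentol and no other was called (limma, Benjamini-Hochberg adjusted p under 0.05). In the same fit, 27.7% of all tested genes were called, 13.6% as higher and 14.1% as lower, so 1 call among 6 genes is near this background. The median change was 0.10 on the log2 scale over the 6 genes and -0.06 over all tested genes. The ranges of the 5 control and 5 stiripentol libraries overlapped for each of the 6 genes, whereas they did not overlap for 27.2% of all tested genes. In bulk RNA, fewer cells with a transcript and less of it per cell cannot be told apart.

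Mt1 was measured by 424 to 3037 reads per library. Its log2 CPM was 4.90, 5.25, 4.35, 4.47 and 4.25 in controls 1 to 5 and 4.83, 4.91, 5.64, 5.67 and 5.59 in stiripentol 1 to 5. Stiripentol 3 to 5 lay above every control, whereas stiripentol 1 and 2 lay within the control range. The control mean was 4.65 ± 0.42 and the stiripentol mean was 5.33 ± 0.42 (SD, n = 5 each). The difference of 0.68 on the log2 scale (SE 0.25, 95% interval 0.14 to 1.23) had an adjusted p of 0.0618 (limma). With trimmed mean (TMM) scaling the difference was 0.78 and passed the threshold (limma adjusted p = 0.0192), as it did with quantile normalization (0.79, adjusted p = 0.0160). It also passed without control 2 (0.83, limma adjusted p = 0.0349) and without stiripentol 1 (0.80, adjusted p = 0.0426).

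Mt2, the neighbor of Mt1 on the chromosome, was measured by 129 to 1804 reads per library. Its log2 CPM was 4.39, 4.96, 2.71, 3.30 and 2.97 in controls 1 to 5 and 1.11, 1.59, 4.51, 4.48 and 4.60 in stiripentol 1 to 5. Stiripentol 1 and 2 were below every control, and stiripentol 3 to 5 lay between controls 1 and 2. The means were 3.67 ± 0.97 (SD, n = 5) and 3.26 ± 1.75 (SD, n = 5). The difference of -0.41 (SE 0.78, 95% interval -2.13 to 1.31) was smaller than the spread between libraries (limma adjusted p = 0.712). It changed sign without stiripentol 1 (0.13) or stiripentol 2 (0.01). Mt2 spanned 3.85 log2 units over the 10 libraries, a range that 3.46% of tested genes exceeded, and the median range of tested genes was 1.27.

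**Figure D2:**
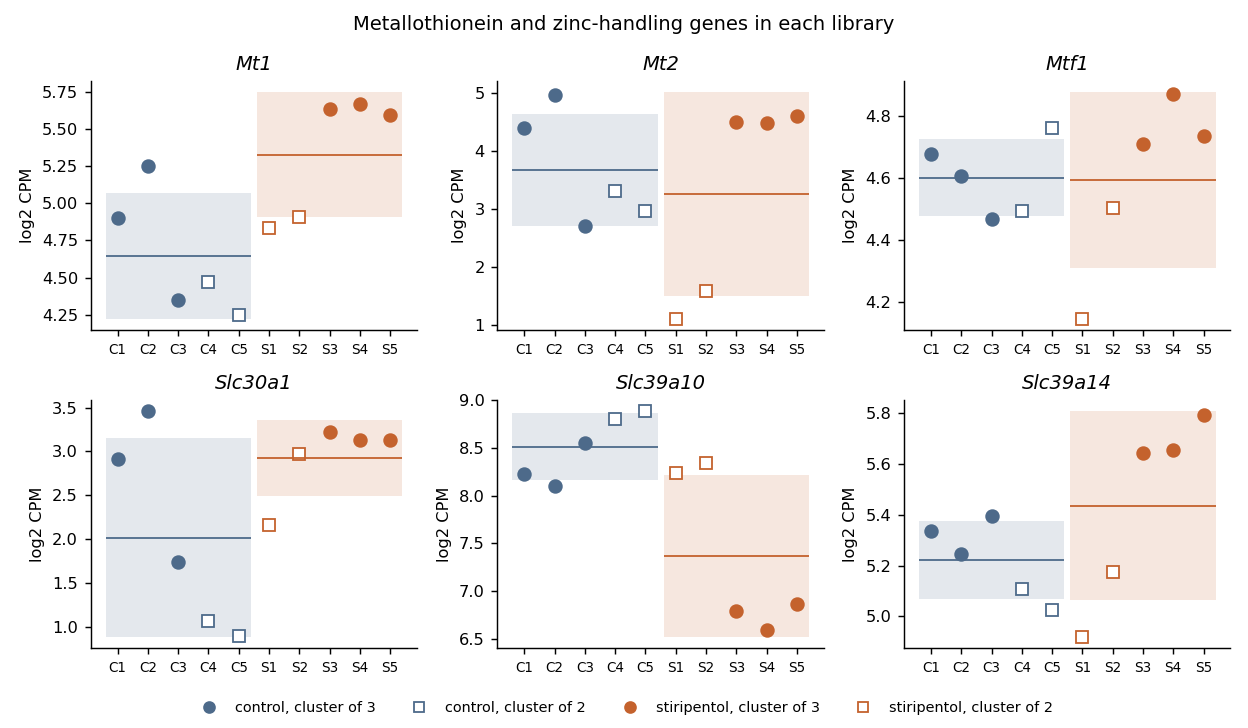
log2 CPM of the 6 genes in each control (blue, C1 to C5) and stiripentol (orange, S1 to S5) library, with circles for the library clusters of 3 and open squares for those of 2, and with lines and bands for the group mean ± SD (n = 5). S1 and S2 stand apart from S3 to S5 for Mt1, Mt2, Slc39a10 and Slc39a14, and each vertical axis has its own range.

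The ratio of the 2 metallothioneins varied between libraries. The log2 CPM of Mt1 minus that of Mt2, a quantity chosen after the values were seen, was 0.51, 0.29, 1.64, 1.17 and 1.27 in controls 1 to 5. It was 3.72, 3.32, 1.13, 1.18 and 0.99 in stiripentol 1 to 5. Stiripentol 1 and 2 were above all other libraries, and stiripentol 3 to 5 were within the control range. The group means were 0.98 ± 0.56 and 2.07 ± 1.33 (SD, n = 5 each), and their difference of 1.09 had a two-sided exact permutation p of 0.175 over 252 arrangements. Mt3, the brain metallothionein, had 2 reads in all, 1 each in stiripentol 4 and 5, and Mt4 was not analysed here.

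**Figure D3:**
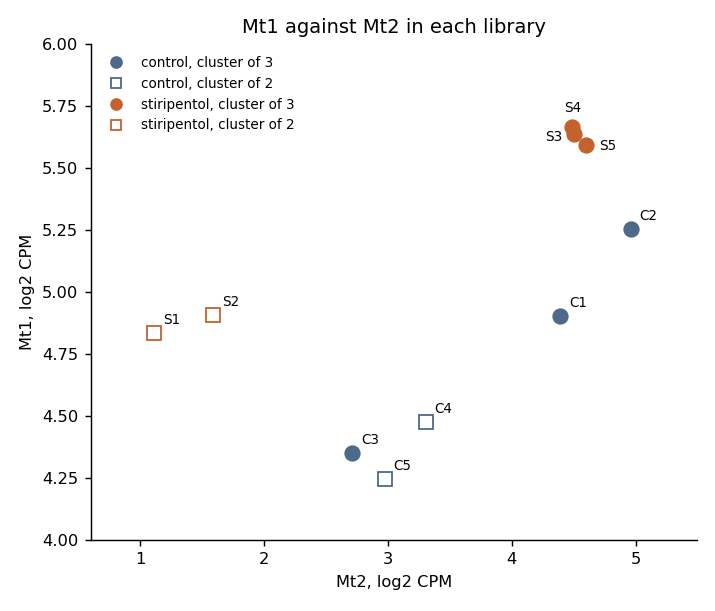
log2 CPM of Mt1 (vertical) against Mt2 (horizontal), 1 point per library, with control libraries in blue and stiripentol libraries in orange. S1 and S2 lie at Mt2 values of 1.11 and 1.59, left of all other libraries, while their Mt1 values of 4.83 and 4.91 are within the control range.

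Mtf1, the zinc sensor, had the narrowest range of the 6 genes, with 606 to 1751 reads per library. Its log2 CPM was 4.68, 4.60, 4.47, 4.49 and 4.76 in controls 1 to 5 and 4.14, 4.50, 4.71, 4.87 and 4.74 in stiripentol 1 to 5. Stiripentol 1 was the lowest and stiripentol 4 the highest of the 10 libraries. The means were 4.60 ± 0.12 and 4.59 ± 0.28 (SD, n = 5 each). The difference of -0.01 (SE 0.16, 95% interval -0.35 to 0.33, limma adjusted p = 0.974) changed sign under TMM scaling (0.09).

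Slc30a1, the plasma membrane zinc exporter, was measured by 41 to 637 reads per library. Its log2 CPM was 2.92, 3.46, 1.74, 1.07 and 0.90 in controls 1 to 5 and 2.17, 2.97, 3.23, 3.13 and 3.13 in stiripentol 1 to 5. Controls 4 and 5 were the lowest 2 libraries, but control 2 was the highest of all. The means were 2.02 ± 1.13 and 2.92 ± 0.43 (SD, n = 5 each), and the difference of 0.90 did not pass the threshold (SE 0.49, 95% interval -0.17 to 1.98, limma adjusted p = 0.182).

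Slc39a10, the plasma membrane zinc importer, had 5778 to 28556 reads per library. Its log2 CPM was 8.23, 8.10, 8.55, 8.81 and 8.89 in controls 1 to 5 and 8.23, 8.35, 6.79, 6.59 and 6.86 in stiripentol 1 to 5. Stiripentol 3 to 5 were below every control, and stiripentol 1 and 2 were within the control range. The mean fell from 8.51 ± 0.35 (SD, n = 5) to 7.37 ± 0.85 (SD, n = 5). The log2 difference was -1.15 (SE 0.36, 95% interval -1.94 to -0.35, limma adjusted p = 0.0374), which is a level of 0.451 of control. The call was lost under TMM scaling (-1.05, limma adjusted p = 0.0821) and without any 1 of controls 1, 3, 4 and 5 or stiripentol 3, 4 and 5, with adjusted p up to 0.0746 and log2 differences of -1.22 to -0.95.

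Slc39a14, which imports zinc, manganese and iron, had 728 to 3046 reads per library. Its log2 CPM was 5.33, 5.25, 5.40, 5.11 and 5.03 in controls 1 to 5 and 4.92, 5.17, 5.64, 5.65 and 5.79 in stiripentol 1 to 5. Stiripentol 3 to 5 were above every control and stiripentol 1 was below every control. The means were 5.22 ± 0.15 and 5.44 ± 0.37 (SD, n = 5 each), and the difference of 0.21 did not pass the threshold (SE 0.18, 95% interval -0.18 to 0.61, limma adjusted p = 0.382).

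To see how far these values depended on the library clusters, each control cluster was compared with each stiripentol cluster. Between clusters most genes differ, so the background is high. The share of tested genes called by limma was 72.2% for controls 4 and 5 against stiripentol 1 and 2, and 64.7% for controls 1 to 3 against stiripentol 3 to 5. It was 69% for controls 4 and 5 against stiripentol 3 to 5, and 73.3% for controls 1 to 3 against stiripentol 1 and 2. The median change of all tested genes was -0.25 in both comparisons with stiripentol 1 and 2, 0.08 for controls 1 to 3 against stiripentol 3 to 5 and 0.05 for controls 4 and 5 against stiripentol 3 to 5. The libraries of 1 cluster enter 2 of the 4 comparisons, so these are not independent. The clusters were cut from these same values, which keeps the spread within them small. P-values of these comparisons and of the interaction test below therefore do not measure the spread between separate cultures. With 1 mean per group and cluster, limma called 0 of 12306 genes. Of the 6 genes, 4, 3, 5 and 1 were called in the 4 comparisons, in the order given.

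When clusters of equal size were compared, the log2 difference of Slc39a10 was -0.56 with stiripentol 1 and 2 and -1.54 with stiripentol 3 to 5 (limma adjusted p = 0.000335 and 4.92e-05). In the crossed comparisons its log2 difference was -2.10 for controls 4 and 5 against stiripentol 3 to 5, and 0.00 (SE 0.14) for controls 1 to 3 against stiripentol 1 and 2. Slc39a10 was thus called as lower in 3 of the 4 comparisons.

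Mt1 differed by 0.51 and 0.80 between clusters of equal size (limma adjusted p = 0.00451 and 0.00925). The crossed comparisons gave 1.27 for controls 4 and 5 against stiripentol 3 to 5, and 0.03 (SE 0.24) for controls 1 to 3 against stiripentol 1 and 2. No comparison gave a lower mean of Mt1 with stiripentol.

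Mt2 went in both directions. The log2 difference was -1.79 for controls 4 and 5 against stiripentol 1 and 2 (limma adjusted p = 2.11e-05) and -2.67 for controls 1 to 3 against stiripentol 1 and 2 (adjusted p = 0.00348). It was higher by 1.39 for controls 4 and 5 against stiripentol 3 to 5 (adjusted p = 5.98e-06), and the difference was 0.51 (SE 0.50) for controls 1 to 3 against stiripentol 3 to 5.

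Slc30a1 was higher by 1.58 in the smaller clusters (limma adjusted p = 0.00023) and by 2.17 for controls 4 and 5 against stiripentol 3 to 5 (adjusted p = 9.47e-07). The other 2 comparisons, which use controls 1 to 3, gave 0.45 (SE 0.38) and -0.14 (SE 0.47). Slc39a14 was higher by 0.37 and 0.63 in the 2 comparisons with stiripentol 3 to 5 (limma adjusted p = 0.00291 and 5.29e-05), and the values with stiripentol 1 and 2 were -0.02 and -0.28. Mtf1 was not called in any of the 4 comparisons, with log2 differences of -0.30 to 0.19.

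**Figure D4:**
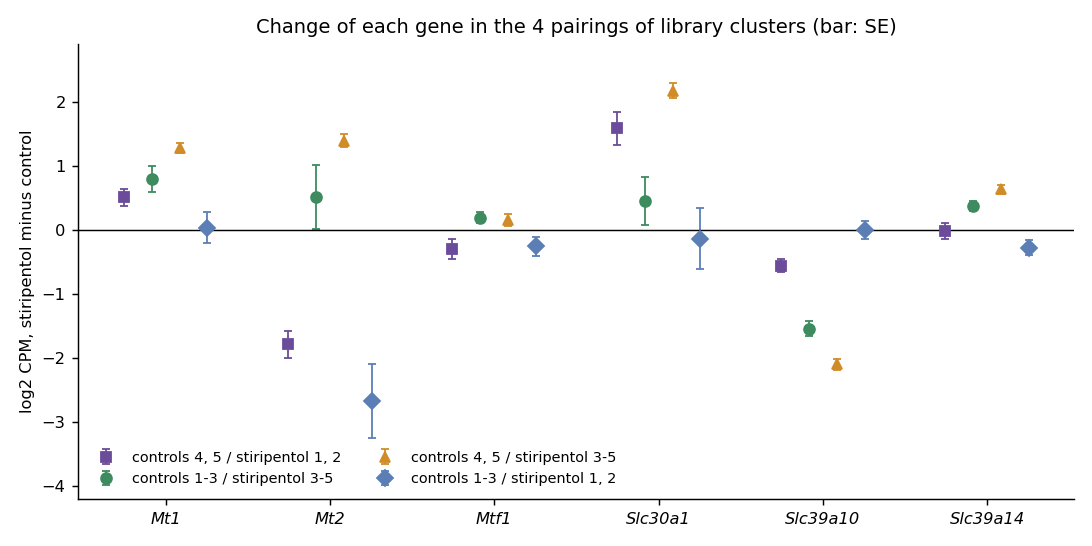
log2 difference (stiripentol minus control, limma) of each gene in the 4 pairings of library clusters, with bars for ± SE. Mt2 is below 0 in both pairings with stiripentol 1 and 2 and above 0 in both with stiripentol 3 to 5, and Slc39a10 is at 0.00 only where controls 1 to 3 meet stiripentol 1 and 2.

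The difference between cluster effects was tested with an interaction term, first matching clusters by size. This term was called for 63.3% of tested genes. It was called for Mt2, Mtf1, Slc39a10 and Slc39a14, with values of 2.30, 0.49, -0.98 and 0.39 (clusters of 3 minus clusters of 2, limma adjusted p = 0.0118, 0.0323, 0.00062 and 0.0275). For Mt1 it was 0.29 (adjusted p = 0.388) and for Slc30a1 it was -1.13 (adjusted p = 0.0974). After quantile normalization the calls of Mt2, Mtf1 and Slc39a14 were lost and Slc30a1 was called (-1.998, limma adjusted p = 0.00878). With the clusters crossed, a matching added after the values were seen, 71.9% of tested genes and 5 of the 6 genes were called, Mtf1 being the exception (adjusted p = 0.0614).

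Among the other zinc transporters, the called genes were all lower with stiripentol. Of 11 zinc exporter genes, 6 were tested, and 2 fell and none rose, or 33.3% of those tested, against 27.7% called in either direction and 14.1% called as lower among all tested genes (median log2 change -0.34). Slc30a7, which loads zinc into the Golgi, fell from 6.13 ± 0.25 to 5.41 ± 0.27 log2 CPM (SD, n = 5 each), by 0.72 on the log2 scale (SE 0.16, limma adjusted p = 0.0101). Slc30a9, a transporter of the mitochondrion, fell from 6.49 ± 0.10 to 6.08 ± 0.27 (SD, n = 5 each), by 0.41 (SE 0.13, limma adjusted p = 0.0435). In both genes all 5 stiripentol libraries were below all 5 controls. The call of Slc30a9 held only without stiripentol 4 or without stiripentol 5 when each library was left out in turn, with adjusted p up to 0.101. Besides Slc30a1, the exporters Slc30a4, Slc30a5 and Slc30a6 had log2 differences of -0.55, -0.17 and -0.27 that did not pass. Below the filter on low values, Slc30a2 and Slc30a3 had 299 reads each over all libraries, Tmem163 had 98 and Slc30a10 had none, and Slc30a8 was not analysed here.

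Of 14 zinc importer genes, 10 were tested, and 3 fell and none rose, or 30% of those tested (median log2 change -0.13). This is near the 27.7% called in either direction among all tested genes, of which 14.1% were called as lower. Beside Slc39a10, the called importers were Slc39a13, which releases zinc from the Golgi and vesicles, and Slc39a1, an importer of the plasma membrane. Slc39a13 fell from 6.02 ± 0.15 to 5.24 ± 0.15 log2 CPM (SD, n = 5 each), by 0.78 (SE 0.12, limma adjusted p = 0.0014). Slc39a1 fell from 7.92 ± 0.08 to 7.33 ± 0.32 (SD, n = 5 each), by 0.59 (SE 0.15, limma adjusted p = 0.0141). All 5 stiripentol libraries were below all 5 controls for both genes. Unlike Slc39a10, Slc39a13 and Slc39a1 were called when any 1 library was left out and in all 4 comparisons of clusters, with log2 differences of -1.03 to -0.52 for Slc39a13 and -0.97 to -0.31 for Slc39a1. Slc30a7 was also called in each of these, with -1.18 to -0.26. The 7 importers that did not pass had log2 differences of -0.18 to 0.37. Slc39a2, Slc39a5, Slc39a8 and Slc39a12 had 31, 2, 26 and 3 reads over all libraries and were not tested.

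**Figure D5:**
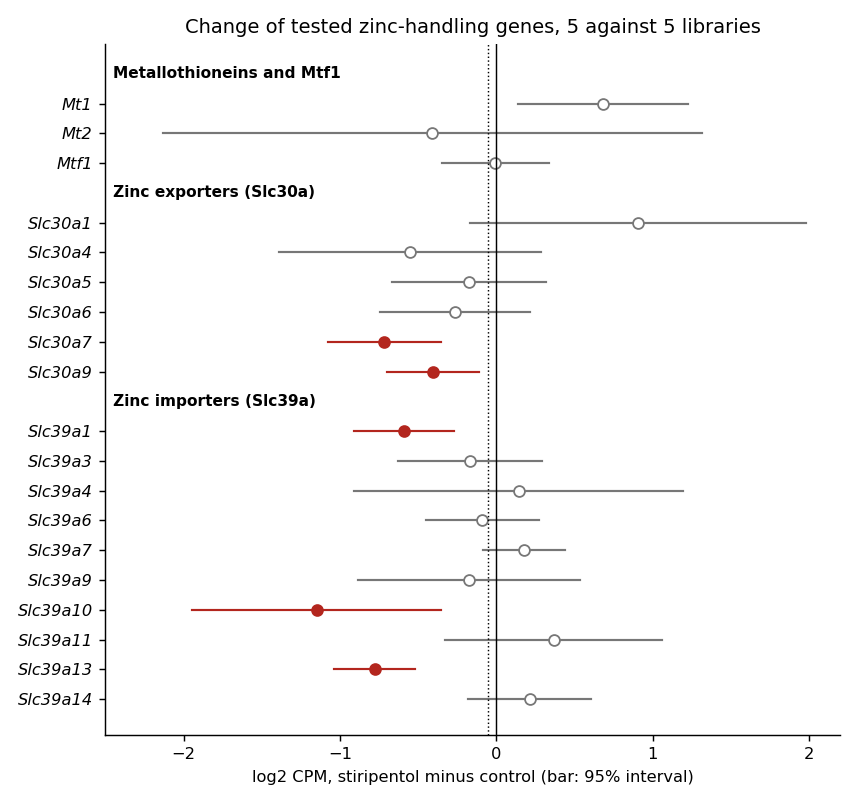
log2 difference (stiripentol minus control) with its 95% interval (limma, n = 5 per group) for the metallothioneins, Mtf1 and the zinc transporters that were tested. Filled red points mark the 5 genes called at an adjusted p under 0.05, all of them lower with stiripentol, and the dotted line marks the median of all tested genes at -0.06.

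Genes that share metals or inducers with the metallothioneins were counted in the same fit. This fit called 13.6% of all tested genes as higher and 14.1% as lower. Of 13 copper-handling genes, Mt1 and Mt2 included, 1 fell and none rose (median -0.20), which is 7.69% called against 27.7% of all tested genes. This was Cp, the copper-carrying ferroxidase ceruloplasmin, which fell from 9.70 ± 0.41 to 7.69 ± 0.06 log2 CPM (SD, n = 5 each), by 2.01 (SE 0.18, limma adjusted p = 9.64e-05), with all 5 stiripentol libraries below the controls. Under TMM scaling the copper list had 2 higher calls, Mt1 and Sco1, beside that of Cp. This scaling called 1976 of all 12306 tested genes as higher.

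Of 10 stress genes known to be induced by cadmium and other metals, 8 were tested and 1 rose (median 0.16). This is 12.5% called, against 27.7% of all tested genes in either direction and 13.6% called as higher. Hspa1b, a heat-shock chaperone, rose from 3.80 ± 0.17 to 4.75 ± 0.53 log2 CPM (SD, n = 5 each), by 0.95 (SE 0.24, limma adjusted p = 0.0156), and its reads may be shared with the near-identical Hspa1a. Hmox1, the heme oxygenase that cadmium induces, had a difference of 0.91 with an interval from -0.59 to 2.41. With clusters matched by size, its difference was -1.31 in the smaller clusters and 2.40 in the larger ones. Srxn1 (-2.08 and 1.16), Gclm (-1.05 and 1.29), Slc7a11 (-1.56 and 0.87), Txnrd1 (-0.91 and 0.60) and Gclc (-1.74 and 0.26) also changed sign. Hspa1b (1.34 and 0.69) and Dnajb1 (0.71 and 0.07) were higher in both. These differences hold for the matching by size only, and those of the crossed matching are not given here. The median of all tested genes was itself -0.25 in the smaller clusters and 0.08 in the larger ones. The interaction term was called for 63.3% of all tested genes, and its part in the share called was not tested.

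Of 9 glucocorticoid-responsive genes, 7 were tested, and 2 fell and none rose (median 0.15), which is 28.6% called. This is near the 27.7% called in either direction among all tested genes, of which 14.1% were called as lower. Dusp1, a phosphatase of MAP kinases, fell from 6.44 ± 0.19 to 4.08 ± 1.68 log2 CPM (SD, n = 5 each), by 2.36 (SE 0.66, limma adjusted p = 0.0234). The kinase gene Sgk1 fell from 6.17 ± 0.51 to 4.48 ± 0.70 (SD, n = 5 each), by 1.69 (SE 0.34, limma adjusted p = 0.00567). Dusp1 was not called without control 3 (-2.29, limma adjusted p = 0.0536). Tsc22d3 and Fkbp5, commonly used readouts of this hormone, had differences of 0.58 and 0.17 that did not pass. Those of Per1 (0.81), Nr3c1 (0.15) and Klf9 (-0.37) did not pass either.

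As a description, the tested genes whose log2 CPM followed each gene most closely over the 10 libraries are given with Pearson r. The libraries share clusters and depth, so high values are common and no test was made. Mt1 was followed by Atpaf2 (0.970), Ick (0.967) and Lrrc8d (0.961), and Mt2 by Dpagt1 (0.980), Sap30bp (0.980) and Lbr (0.975). The list for Mtf1 was Arid1b (0.965), Cbx2 (0.944) and Wasf1 (0.940), and that for Slc30a1 was Sapcd2 (0.960), Med7 (0.958) and Mcm2 (0.957). Slc39a10 was followed by Ctps2 (0.984), Mxra8 (0.982) and Aldh2 (0.978), and Slc39a14 by Aagab (0.974), Coa5 (0.973) and Rbsn (0.973). The lists of the 6 genes shared no gene.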

How the data were processed

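RNA of mSCLC-2405 cells was sequenced in 5 control and 5 stiripentol libraries, grouped by their titles in the sample records. The methods name Lexogen QuantSeq 3′ mRNA libraries and GENAVi for the scaling to library totals, whereas the records name TruSeq total RNA and the build mm10, and the aligner and annotation are not given in the sources used here. The values deposited by the authors are log2 CPM (reads scaled to the library total), with a prior of 0.837 to 2.38 reads added before the logarithm, which lowers the fold change of weak genes. Their columns of group means, p-values, q-values and fold changes were not used. After removal of the prior, 100% of values were whole reads within 0.01.

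The deposited log2 CPM were fitted with limma 3.58.1 (lmFit, eBayes with a mean-variance trend) in R 4.3.3 over the 12306 genes with a mean above 0, with no covariate. Genes were called at a Benjamini-Hochberg adjusted p under 0.05. Other steps used Python 3.11.15 with numpy 2.4.6, scipy 1.17.1 and pandas 2.3.3. The main limma steps were tried on simulated reads that had no library clusters. Transcripts were compared with blastn 2.17.0+, and promoters were found for 5 of the 6 genes. The genes and lists were chosen with earlier results of these data known. Named by rule were the 6 genes, called genes of the zinc lists (at most 3 per direction), the 3 largest called changes of the other lists and the 3 tested genes with the highest Pearson r. The alternatives were other scalings, filters, pseudocounts, limma voom on the recovered reads, a replicate block, the library clusters, leaving out each library and a minimum log2 change. The crossed matching of clusters was chosen after seeing the data. Depth covers counting error only. The values of 2 genes are not reported here.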

Additional observations from a re-analysis of the deposited data

Results flagged for a closer look

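The effect of stiripentol differed between library clusters in 4 of the 6 genes when clusters were matched by size (interaction term, limma adjusted p under 0.05). The effect in clusters of 3 minus that in clusters of 2 was 2.30 for Mt2, 0.49 for Mtf1, -0.98 for Slc39a10 and 0.39 for Slc39a14 on the log2 scale. The clusters were defined from the data and matched by size alone. The interaction was called for 63.3% of all tested genes. The call was lost for Mt2 without stiripentol 1 (2.06), for Mtf1 without control 5 or without stiripentol 1, 4 or 5 (0.31 to 0.51), and for Slc39a14 without control 2 or 4 or without stiripentol 1 or 5 (0.26 to 0.35).

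Slc30a1 in stiripentol 1, at 2.17 log2 CPM, lay far from the other 4 stiripentol libraries by Dixon's criterion for 5 values (0.71). It was the only far value in 14 groups of 5 that were searched. Chance alone marks about 1 in 20 of such groups, so a single mark among 14 groups is not unusual.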

How the results depend on the processing

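The edgeR and DESeq2 alternatives were not run, although whole reads were recovered, and the tests stayed with limma on log2 CPM and voom. TMM and quantile scaling moved the median of all genes by 0.10, and the cause of the changes below was not tested. The difference of Mt1 was 0.78 under TMM scaling, 0.79 after quantile normalization, 0.76 with limma voom, 0.68 with a term for the cluster, 0.51 in clusters of 2 and 0.80 in clusters of 3, and passed in each. With a term for the crossed clusters it was 0.65 and did not pass (limma adjusted p = 0.0652). Mt2 was -1.79 in clusters of 2 (called) and 0.51 in clusters of 3. Mtf1 turned positive, at 0.094 with TMM, 0.10 after quantile normalization, 0.11 with voom and 0.19 in clusters of 3. Slc30a1 was called in clusters of 2 (1.58). Slc39a10 was not called with TMM (-1.05), with voom (-1.05), under the replicate block by the deposited numbers (-1.15) or on 1 mean per group and cluster (-1.05). Slc39a14 was -0.021 in clusters of 2 and 0.37 in clusters of 3 (called).

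Of the 6 genes, 2 were called after quantile normalization, 2 with the cluster term and 1 with the crossed term. Among all 12306 tested genes, these fits called 3880, 6244 and 5340. Clusters of 2 gave 4 of the 6 genes and 72.2% of all tested genes, and clusters of 3 gave 3 and 64.7%. The replicate block gave 0 of the 6 genes and 2082 of all tested genes. On 1 mean per group and cluster, limma called 0 of the 6 genes and 0 of 12306 genes, with 1116 at an unadjusted p under 0.05. Without filter, 1 zinc exporter and 2 stress genes were called, beside 3523 of 25356 genes. The replicate block left 0 exporters, 1 importer and 2 copper genes. With the cluster term, 4 of 6 exporters and 4 of 13 copper genes were called, beside 6244 of 12306 genes. The lists held 6 exporters, 10 importers, 13 copper, 8 stress and 7 glucocorticoid genes that were tested. In this order, clusters of 2 gave 5, 8, 10, 8 and 5 called genes, beside 72.2% of all tested genes. Clusters of 3 gave 4, 8, 6, 6 and 5, beside 64.7%. On cluster means each list had 0. A minimum log2 change of 1 left 0 exporters, 1 importer and 0 stress genes, beside 1294 of 12306 genes. TMM, quantile normalization and voom gave 3, 4 and 3 copper genes, beside 3667, 3880 and 3699 of 12306 genes. A term for the crossed clusters gave 2 exporters, 4 importers, 5 copper, 3 stress and 4 glucocorticoid genes, beside 5340 of 12306 genes.

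After quantile normalization the interaction was -0.074 for Mt1, 1.43 for Mt2, 0.048 for Mtf1, -1.998 for Slc30a1 (called) and 0.072 for Slc39a14. Slc39a10 kept its call.

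Leaving out each library gave 0.58 to 0.83 for Mt1, -0.74 to 0.13 for Mt2, -0.078 to 0.10 for Mtf1, 0.62 to 1.26 for Slc30a1, -1.39 to -0.95 for Slc39a10 and 0.12 to 0.34 for Slc39a14. It gave 0 to 2 of the 6 genes called, 1 to 2 exporters, 2 to 3 importers, 1 to 3 copper, 1 stress and 1 to 3 glucocorticoid genes. Of all tested genes, 2385 (without stiripentol 2) to 3317 (without control 4) were called. The interaction ranged over 0.04 to 0.50 for Mt1, 1.65 to 2.77 for Mt2, 0.31 to 0.67 for Mtf1, -1.61 to -0.73 for Slc30a1, -1.08 to -0.85 for Slc39a10 and 0.26 to 0.52 for Slc39a14. The Mt1 to Mt2 difference ranged from 0.68 to 1.36.

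Once group means were taken off, a control and a stiripentol library with equal replicate numbers correlated at -0.240 to 0.0612 (mean -0.152). These values cannot decide whether libraries were paired. They depend on how the library clusters are numbered, and the published paper numbers the controls differently. The replicate block used the deposited numbers, and a block by the paper's numbers was not tried. With the block used, 2082 of 12306 genes were called, against 3414 without it, and 0 of the 6 genes. Slc30a1 had as few as 41 reads in a library, and counting error was not compared with the spread between libraries.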
